A study of Mus musculus with 11 samples.

Results

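RNA-Seq counts of mammary tumor-derived mouse cell lines were examined for 54 protein-coding genes of guidance receptors and their ligands, cadherins, cell junction proteins and keratins. Members were chosen by gene symbol, from the 4461 genes (4056 of them protein-coding) of the deposited comparison of NIC/Cpt1a L/L with NIC/Cpt1a +/+ cells. They are 4 Eph receptors and ephrins, 13 semaphorins, plexins and neuropilins, 4 genes of the Slit, Robo and netrin group, 5 cadherins, 8 protocadherins, 4 claudins, 8 connexins, 4 desmosomal genes and 3 keratins, and no nectin was listed. A further match, Unc5cl, shares only its spelling with the Unc5 netrin receptors. Cldn25 carries the gene identifier ENSMUSG00000022744, which GENCODE M21 names Cldnd1, a claudin domain-containing gene.

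The cells came from mammary tumors of female FVB/N mice, excised 8 weeks after the tumors could be felt, and were grown untreated in serum-containing medium with EGF, hydrocortisone and insulin. In both genotypes the MMTV promoter, active mainly in mammary epithelium, drove an activated ErbB2 (Neu) together with Cre recombinase, so that Cre was also present in the control lines. NIC/Cpt1a L/L cells carried conditional Cpt1a alleles, which Cre deletes, and NIC/Cpt1a +/+ cells carried wild-type Cpt1a, the enzyme that admits long-chain fatty acids to mitochondria. There were 4 independent NIC/Cpt1a L/L lines (KO_1922, KO_1925, KO_2768 and KO_4258) and 2 NIC/Cpt1a +/+ lines (WT_5257 and WT_8905), sequenced in duplicate except for KO_2768, for which 1 library was used. Genotypes follow the genotype field and the line names, although the titles word the allele status the other way round.

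The table lists only genes that its authors had called different between the genotypes, so the comparison between genotypes had already chosen every gene described here. Values for it are therefore a description, and p-values for it are too small. Differences among lines of 1 genotype were not the contrast used for that choice. Levels are given as FPKM, reads per kilobase of gene scaled to the depth of the library, computed from the counts of each line after summing its duplicates. Values of lines are listed in the order KO_1922, KO_1925, KO_2768 and KO_4258, then WT_5257 and WT_8905, means are given with the SD over lines, and "called" means an adjusted p under 0.05 in edgeR's quasi-likelihood F-test with Benjamini-Hochberg adjustment over the table.

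Guidance molecules are ligand and receptor pairs first known for steering axons, which also act between epithelial cells and their surroundings. Ephrins bind Eph receptor tyrosine kinases on neighbouring cells, secreted class 3 semaphorins act through complexes of neuropilins and plexins, and Slits and netrins bind Robo and DCC or Unc5 receptors. Cadherins hold cells together by calcium-dependent binding, claudins seal the space between epithelial cells, connexins form the channels of gap junctions, and desmosomes anchor the keratin filaments that make up the epithelial cytoskeleton.

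Library totals, recovered from counts, gene length and FPKM, lay between 15199378 and 25386785 reads, and 33.3% to 34.6% of them fell on listed genes. Cpt1a itself was not analysed here, so the deletion was not checked at the RNA level. Of 15 luminal and pan-epithelial markers only Elf5 was in the table, of 7 endothelial and 4 adipocyte markers none, and genes outside the table were not analysed here. All 7 listed genes of 13 fibroblast and mesenchymal markers had a higher mean in NIC/Cpt1a L/L lines, as did 58.6% of all tested genes. None of the 7 was called, and S100a4 alone was higher in every NIC/Cpt1a L/L line. The summed level of the 7 was 467 to 1645 FPKM in those lines against 6.63 and 8.60 FPKM in the NIC/Cpt1a +/+ lines. Within that list the lines were unlike each other. In KO_1922 and KO_1925 the sum was nearly all S100a4 (310 and 129 FPKM) and Fn1 (232 and 336.5 FPKM). The remaining listed markers did not exceed 0.813 FPKM in those lines. Decorin (Dcn) was at 725 FPKM in KO_2768 and between 0 and 0.471 FPKM in every other line, whereas in KO_4258 Dcn, Pdgfrb, Fn1, Col1a2, Cdh11 and Thy1 were all at 0 and S100a4 alone, at 1569 FPKM, made up the sum. Of 9 leukocyte markers Csf1r was listed, at 66.5 FPKM in KO_4258 and 0.00672 to 3.65 FPKM elsewhere. Of 8 melanocyte and neural crest markers 3 were listed, and Mlana was at 394 and 58.7 FPKM in the NIC/Cpt1a +/+ lines and 0.0838 to 0.585 FPKM in the others. Sox10 was at 241 and 222 FPKM in the NIC/Cpt1a +/+ lines and at 54.1 to 92.9 FPKM in the others. Both genes were called lower in NIC/Cpt1a L/L lines, as were 3.47% of all tested genes. The third, S100b, had the opposite direction with overlapping lines, at 0 and 0.274 FPKM in the controls and 0.0620 to 13.4 FPKM in NIC/Cpt1a L/L lines, the highest in KO_2768. The part of these markers in the results was not tested, and fewer cells of a type and less RNA per cell cannot be told apart in such bulk samples.

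Most of the 54 genes had a higher mean in NIC/Cpt1a L/L lines, but in many of them the lines of that genotype differed widely. After a filter on low counts 50 genes were tested between genotypes, and 33 of them were higher and 17 lower, where 58.6% of all tested genes were higher. The median log2 fold change was 1.79 over the 50 genes and 0.494 over all tested genes. Setting genes with no reads in 1 genotype at their bound gave a median of 1.73 over 51 genes. The 4 untested genes, Pcdhb4, Pcdhb10, Dsg1c and Dsg4, did not exceed 0.620 FPKM in any line. The highest level in any line was at least 10 FPKM for 23 genes, between 1 and 10 FPKM for 19, and under 1 FPKM for 12.

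**Figure D1:**
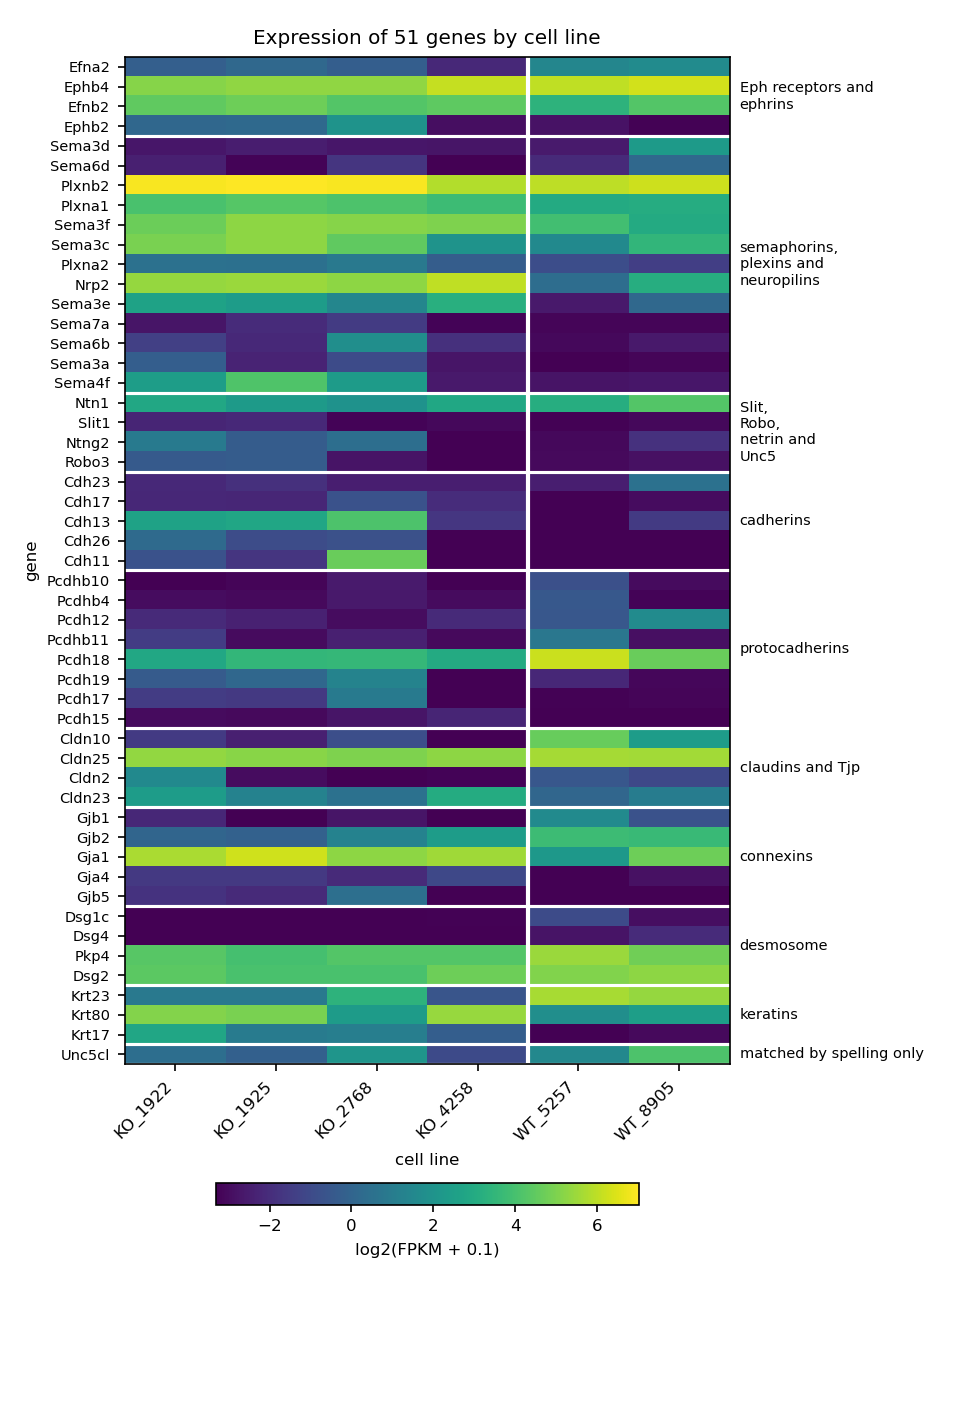
Level of 51 of the genes (rows, grouped by family) in each of the 6 cell lines (columns, 4 NIC/Cpt1a L/L on the left and 2 NIC/Cpt1a +/+ on the right), as log2(FPKM + 0.1). Plxnb2, Ephb4, Nrp2 and Gja1 are among the brightest rows, and in 12 rows that are otherwise brighter in NIC/Cpt1a L/L lines KO_4258 does not exceed both NIC/Cpt1a +/+ lines.

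With the line as the sample, 1 gene was called higher, the semaphorin receptor Plxna1, beside 1.66% of all tested genes, and 1 was called lower, the protocadherin Pcdh18, beside 3.47%. At an unadjusted p under 0.05 the counts were 17 higher (background 21.5%) and 14 lower (background 29%). All 4 NIC/Cpt1a L/L lines lay above both NIC/Cpt1a +/+ lines for 15 genes, and 35.3% of the table did so. They lay below both for 13 genes, and 37.6% of the table did so. The lines of the genotypes overlapped for 26 genes. Read against the table, the genes did not separate the genotypes in larger proportion than other listed genes. The size of their log2 fold changes had a median of 3.25 where that of the table was 1.19. Among the tested members, 4 had no reads and 5 had 1 to 3 reads in the controls, so that their estimates depend on the prior count. Members and other genes were not compared at like levels.

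**Figure D2:**
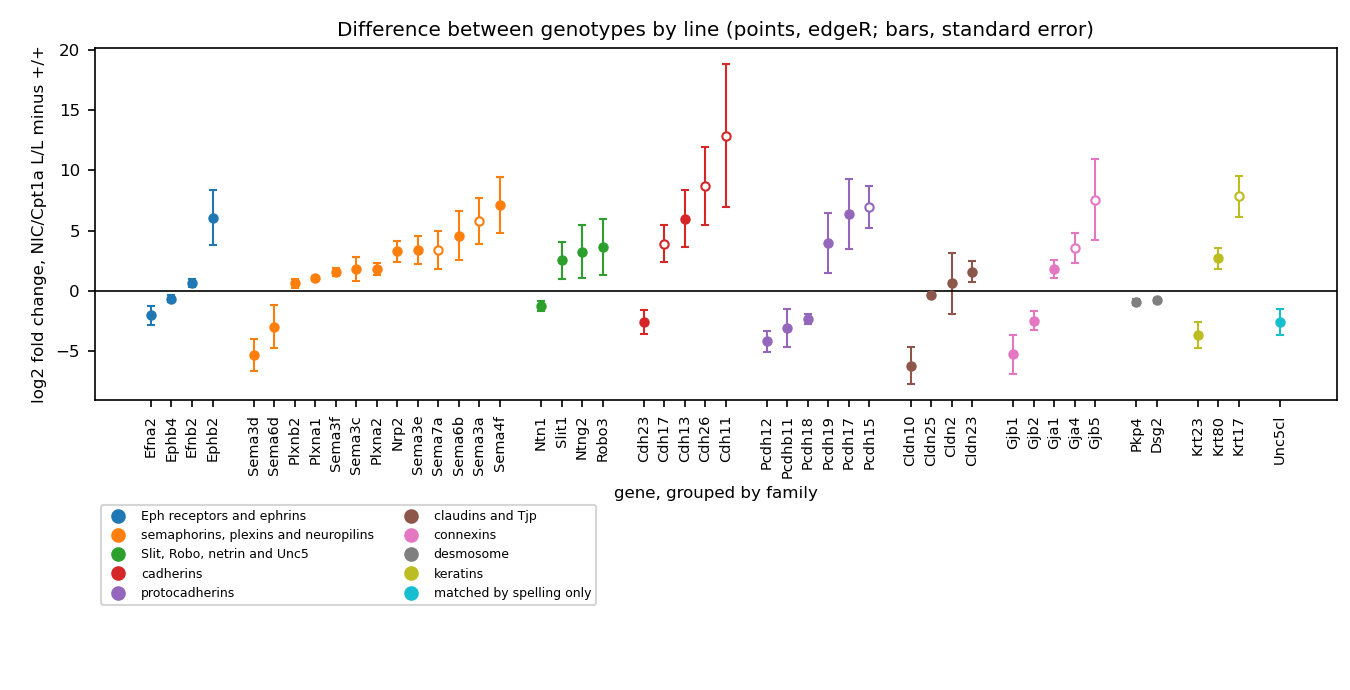
Log2 fold change between genotypes (NIC/Cpt1a L/L minus NIC/Cpt1a +/+) for 47 of the 50 tested genes, by family. Points are edgeR estimates over lines and bars their standard errors, and open points mark genes with no more than 3 reads in all libraries of a genotype, whose position depends on the prior count. Semaphorins and connexins lie mostly above 0, and both desmosomal genes lie below it.

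Plxna1 (chr6:89316316-89362613, mm10, minus strand) encodes a plexin that transmits class 3 semaphorin signals when bound to neuropilins. Plxna1 had levels of 16.3, 19.5, 17.4 and 13.6 FPKM in NIC/Cpt1a L/L lines, and of 8.00 and 8.45 FPKM in the controls. Every NIC/Cpt1a L/L line was above both controls, and the mean was 16.7 ± 2.43 FPKM (SD, n = 4) against 8.23 ± 0.315 FPKM (SD, n = 2). This was a log2 fold change of 1.02 (SE 0.20, edgeR adjusted p = 0.0479). This call held in 5 of 12 alternatives. With both control lines kept, it was lost without KO_1922, KO_1925 or KO_2768, without TMM scaling and with the authors' size factors. The edgeR adjusted p was then up to 0.127. Leaving out WT_5257 or WT_8905 leaves 1 control line, and the log2 fold change was then 0.89 and 1.07. The call was lost in both of these fits as well.

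The other listed semaphorin receptors, Nrp2, Plxna2 and Plxnb2, also had a higher mean in NIC/Cpt1a L/L lines. Nrp2, the co-receptor for Sema3f and for VEGF-C, was outside the rule for genes described in full and was added after its values were seen, as were the other members given here beyond that rule. The level of Nrp2 was 41.5, 44.7, 38.3 and 65.6 FPKM in NIC/Cpt1a L/L lines, against 1.21 and 8.70 FPKM in NIC/Cpt1a +/+ lines. The lowest NIC/Cpt1a L/L line was well above the higher control, and the controls also differed from each other. For Nrp2 the log2 fold change was 3.26 (SE 0.85, edgeR adjusted p = 0.0643). Levels of Plxna2 were 1.35, 1.30, 1.70 and 0.727 FPKM in NIC/Cpt1a L/L lines and 0.452 and 0.277 FPKM in NIC/Cpt1a +/+ lines. Its genotypes did not overlap either, with a log2 fold change of 1.80 (SE 0.50, edgeR adjusted p = 0.0669).

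Plxnb2, the receptor of class 4 semaphorins, had the highest level of the family. Plxnb2 was at 123, 130, 120 and 56.9 FPKM in the NIC/Cpt1a L/L lines and at 63.6 and 75.8 FPKM in the controls. In 3 NIC/Cpt1a L/L lines it was above both controls, whereas KO_4258 was below both. The log2 fold change was 0.62 (SE 0.38, edgeR adjusted p = 0.168), and without KO_4258 it was 0.84 with an adjusted p of 0.0454.

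The secreted class 3 ligands did not share 1 direction. Sema3f had levels of 25.9, 37.9, 35.0 and 32.1 FPKM in NIC/Cpt1a L/L lines, and of 14.6 and 7.99 FPKM in the controls. Sema3f, which signals through Nrp2, was higher in every NIC/Cpt1a L/L line, with a log2 fold change of 1.53 (SE 0.32, edgeR adjusted p = 0.0505). The level of Sema3e was 6.06, 5.11, 2.61 and 8.99 FPKM in NIC/Cpt1a L/L lines, against 0.0648 and 1.03 FPKM in NIC/Cpt1a +/+ lines. Sema3e, a ligand of plexin D1, did not overlap between genotypes, with a log2 fold change of 3.37 (SE 1.19, edgeR adjusted p = 0.0864). Levels of Sema3c were 30.6, 38.3, 22.7 and 3.93 FPKM in NIC/Cpt1a L/L lines and 2.89 and 10.95 FPKM in NIC/Cpt1a +/+ lines. Sema3c was above both controls in 3 lines, but KO_4258 lay between them, and the log2 fold change was 1.79 (SE 1.00, edgeR adjusted p = 0.151). Sema3a, the prototype axon repellent, had between 0 and 100 reads in a NIC/Cpt1a L/L library, and only 2 reads were found in the control libraries, both in 1 of them. The ratio of summed reads, scaled for depth, was 58.9 (95% exact counting interval 16.2 to 488). All of its levels were below 1 FPKM.

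Sema3d had a lower mean in NIC/Cpt1a L/L lines, which came from 1 control line. Sema3d was at 0.0558, 0.0760, 0.0535 and 0.0494 FPKM in the NIC/Cpt1a L/L lines and at 0.0678 and 4.84 FPKM in the controls. WT_8905 was the only line above 0.1 FPKM, so that WT_5257 lay within the range of the NIC/Cpt1a L/L lines. Sema3d, Sema3a, Sema3e and Sema3c lie in this order on chr5, with 808 kb between Sema3d and Sema3a and 423 kb between Sema3a and Sema3e. In that order their log2 fold changes were -5.37, 5.82, 3.37 and 1.79, of which that of Sema3a depends on the prior count of the fit.

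Membrane-bound semaphorins also varied among lines. Sema4f had levels of 5.24, 17.9, 5.05 and 0.0619 FPKM in NIC/Cpt1a L/L lines, and of 0.0464 and 0.0535 FPKM in the controls. Sema4f, a transmembrane semaphorin, was far above the controls in 3 lines, whereas KO_4258 was just above the higher control. The log2 fold change was 7.12 (SE 2.30, edgeR adjusted p = 0.0775). Sema6b did not overlap between genotypes, with the highest level, 3.38 FPKM, in KO_2768 and 0.129 to 0.284 FPKM in the remaining NIC/Cpt1a L/L lines against 0.0164 and 0.0649 FPKM in the controls. The level of Sema6d was 0.0867, 0.00810, 0.198 and 0 FPKM in NIC/Cpt1a L/L lines, against 0.137 and 1.02 FPKM in NIC/Cpt1a +/+ lines. The transmembrane Sema6d, a plexin A1 ligand, was the only member of the group beside Sema3d with a lower mean, and its lines overlapped (log2 fold change -2.99, SE 1.77, edgeR adjusted p = 0.164). Without WT_8905 the log2 fold change of Sema6d was -0.91, at an adjusted p of 0.718 in edgeR. Sema7a, which is anchored by a lipid, had 2 reads in the control libraries and at most 0.247 FPKM in any line.

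Over the 13 genes of semaphorins, plexins and neuropilins, 11 had a positive log2 fold change, 8 were higher in every NIC/Cpt1a L/L line and none was lower in every line, where over the table these shares were 58.6%, 35.3% and 37.6%. The summed level of the group was 182 to 295 FPKM in the NIC/Cpt1a L/L lines and 91.1 and 119 FPKM in the controls. Plxnb2, Nrp2, Sema3f and Sema3c carried most of that sum.

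Eph receptors and ephrins showed smaller differences where their levels were high. Ephb4, a receptor for ephrin-B2, was the most abundant of them. Levels of Ephb4 were 35.4, 39.0, 39.8 and 68.4 FPKM in NIC/Cpt1a L/L lines and 65.0 and 79.3 FPKM in NIC/Cpt1a +/+ lines. KO_4258 lay between the controls and the other 3 NIC/Cpt1a L/L lines lay below both (log2 fold change -0.66, SE 0.31, edgeR adjusted p = 0.116). Its ligand Efnb2 had a higher mean in NIC/Cpt1a L/L lines. Efnb2 was at 22.7, 26.5, 18.7 and 21.8 FPKM in the NIC/Cpt1a L/L lines and at 10.2 and 18.7 FPKM in the controls. The lowest NIC/Cpt1a L/L line and WT_8905 were alike, and the log2 fold change was 0.63 (SE 0.29, edgeR adjusted p = 0.115).

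Ephb2, another receptor of B-type ephrins, was close to absent from the controls. Ephb2 had levels of 0.984, 1.05, 3.88 and 0.0295 FPKM in NIC/Cpt1a L/L lines, and of 0.0405 and 0.00286 FPKM in the controls. In KO_4258 it was no higher than in WT_5257, while KO_2768 had the highest level. The log2 fold change was 6.08 (SE 2.26, edgeR adjusted p = 0.0908). The level of Efna2 was 0.786, 1.04, 0.764 and 0.130 FPKM in NIC/Cpt1a L/L lines, against 2.56 and 3.09 FPKM in NIC/Cpt1a +/+ lines. Efna2, a lipid-anchored ligand of EphA receptors, was lower in every NIC/Cpt1a L/L line, with a log2 fold change of -2.05 (SE 0.79, edgeR adjusted p = 0.0952).

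In the netrin, Slit and Robo group 1 gene exceeded 2 FPKM in any line, the secreted guidance cue Ntn1. Levels of Ntn1 were 7.34, 4.82, 3.78 and 7.04 FPKM in NIC/Cpt1a L/L lines and 8.53 and 18.9 FPKM in NIC/Cpt1a +/+ lines. All NIC/Cpt1a L/L lines were below both controls, WT_8905 was above WT_5257 and the log2 fold change was -1.26 (SE 0.41, edgeR adjusted p = 0.0775). Ntng2, a lipid-anchored netrin, and Robo3, a divergent Slit receptor family member, were higher in 3 NIC/Cpt1a L/L lines and had no reads in KO_4258. Ntng2 was at 1.76, 0.707, 1.23 and 0 FPKM in the NIC/Cpt1a L/L lines and at 0.0161 and 0.176 FPKM in the controls. Robo3 had levels of 0.670, 0.715, 0.0465 and 0 FPKM in NIC/Cpt1a L/L lines, and of 0.0189 and 0.0375 FPKM in the controls. Neither was separated from the controls in that line, and the log2 fold changes were 3.24 (SE 2.18, edgeR adjusted p = 0.199) for Ntng2 and 3.63 (SE 2.33, edgeR adjusted p = 0.185) for Robo3. Slit1, a Robo ligand, stayed at or below 0.129 FPKM in every line.

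**Figure D3:**
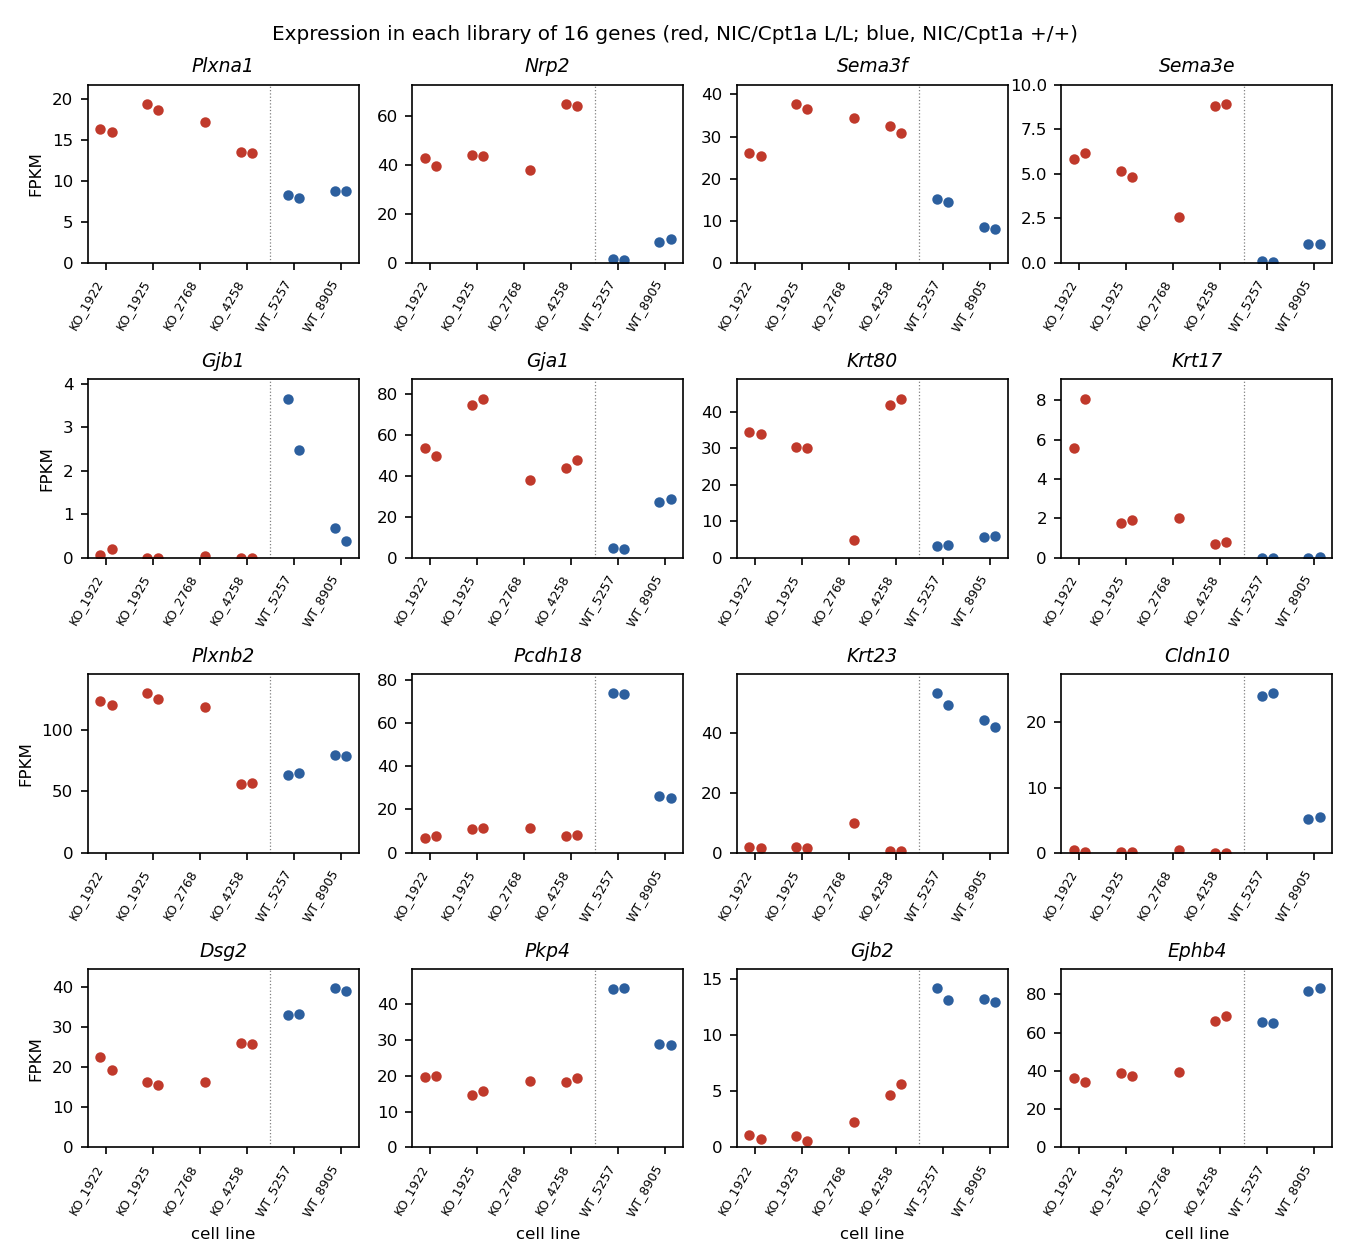
Level (FPKM, vertical axes from 0) of 16 of the genes in each of the 11 libraries, scaled by library, with the duplicates of a line side by side. Red points are NIC/Cpt1a L/L lines and blue points NIC/Cpt1a +/+ lines. Duplicates lie close together in most panels, less so in Krt17 and Gjb1, and KO_2768 has no duplicate. KO_4258 stands apart in Plxnb2 and Ephb4, and KO_2768 stands apart in Krt80 and Krt23.

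The summed level of the 5 cadherins was 43.2 FPKM in KO_2768, 0.434 to 7.98 FPKM in the remaining NIC/Cpt1a L/L lines, and 0.0825 and 1.61 FPKM in the controls. Cdh11 (chr8:102632995-102785111, mm10, minus strand) is a cadherin of mesenchymal cells and also one of the fibroblast markers described above. The level of Cdh11 was 0.513, 0.198, 24.8 and 0 FPKM in NIC/Cpt1a L/L lines, against 0 and 0 FPKM in NIC/Cpt1a +/+ lines. The 4 control libraries held no read, KO_4258 held none, and KO_2768 alone held 2700. Against a floor of 3 reads per library the NIC/Cpt1a L/L mean lay at least 131-fold higher, and without KO_2768 at least 4.88-fold. The fibroblast marker Dcn was also highest in KO_2768, and its part in the Cdh11 level was not tested.

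Cdh13, a cadherin held by a lipid anchor, was the most abundant of the family on average. Levels of Cdh13 were 6.12, 6.92, 17.3 and 0.207 FPKM in NIC/Cpt1a L/L lines and 0 and 0.239 FPKM in NIC/Cpt1a +/+ lines. KO_4258 was below WT_8905 and the other 3 lines were far above it (log2 fold change 5.98, SE 2.38, edgeR adjusted p = 0.0968). Cdh26 had no reads in KO_4258 and in the controls and 0.431 to 1.10 FPKM in the other lines, a mean at least 7.19-fold above the floor, and at least 4.37-fold without KO_1922. Cdh17, the liver and intestine cadherin, was the only cadherin above both controls in every NIC/Cpt1a L/L line, with 3 reads over the control libraries and a ratio of summed reads of 13.6 (95% exact counting interval 4.53 to 67.2). Cdh23 was at 0.129, 0.167, 0.0803 and 0.0808 FPKM in the NIC/Cpt1a L/L lines and at 0.0825 and 1.34 FPKM in the controls. Cdh23, which forms the tip links of hair cells, had a lower mean (log2 fold change -2.64, SE 1.00, edgeR adjusted p = 0.0926) that rested on WT_8905. Without that line the log2 fold change was 0.48.

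Pcdh18 (chr3:49743296-49757316, mm10, minus strand), a non-clustered protocadherin, was the gene called lower. Pcdh18 had levels of 7.19, 11.3, 11.7 and 7.92 FPKM in NIC/Cpt1a L/L lines, and of 73.1 and 24.8 FPKM in the controls. Both controls were above every NIC/Cpt1a L/L line, and the mean was 9.51 ± 2.29 FPKM (SD, n = 4) against 49.0 ± 34.2 FPKM (SD, n = 2). This was a log2 fold change of -2.36 (SE 0.44, edgeR adjusted p = 0.0474). This call held in 6 of 12 alternatives. With both control lines kept, it was lost without KO_1922, KO_1925 or KO_2768, without TMM scaling and with the authors' size factors. The edgeR adjusted p was then up to 0.127. Leaving out WT_5257 or WT_8905 leaves 1 control line, and the log2 fold change was then -1.48 and -2.935. Without WT_5257 the call was lost as well.

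The level of Pcdh12 was 0.135, 0.0934, 0.0278 and 0.136 FPKM in NIC/Cpt1a L/L lines, against 0.593 and 3.11 FPKM in NIC/Cpt1a +/+ lines. Pcdh12, known from endothelium and placenta, was also lower in every NIC/Cpt1a L/L line, with a log2 fold change of -4.22 (SE 0.89, edgeR adjusted p = 0.0524). Of 7 endothelial markers none was listed. Pcdh17 and Pcdh19, relatives of Pcdh18, were above the controls in 3 NIC/Cpt1a L/L lines. Levels of Pcdh17 were 0.260, 0.228, 1.83 and 0 FPKM in NIC/Cpt1a L/L lines and 0.00332 and 0.00985 FPKM in NIC/Cpt1a +/+ lines. Pcdh19 was at 0.681, 0.996, 2.37 and 0 FPKM in the NIC/Cpt1a L/L lines and at 0.120 and 0.0122 FPKM in the controls. KO_2768 was the highest in both genes and KO_4258 had no reads, and the log2 fold changes were 6.38 (SE 2.89, edgeR adjusted p = 0.112) for Pcdh17 and 3.93 (SE 2.50, edgeR adjusted p = 0.183) for Pcdh19. Pcdh15, the partner of Cdh23 in tip links, had 3 to 29 reads in each NIC/Cpt1a L/L library and none in the controls. Its mean was at least 2.16-fold above the floor (at least 1.31-fold without KO_4258), and it did not exceed 0.109 FPKM.

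Pcdhb4, Pcdhb10 and Pcdhb11 belong to the beta cluster, whose members share long similar stretches, so that reads could have been divided among them. Each was highest in WT_5257, at 0.620, 0.478 and 1.63 FPKM, and in WT_8905 each was inside or below the range of the NIC/Cpt1a L/L lines. The summed level of the 8 protocadherins was 8.21 to 16.2 FPKM in NIC/Cpt1a L/L lines and 76.54 and 27.99 FPKM in the controls, most of it Pcdh18.

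Of the 8 connexins 4 were higher in every NIC/Cpt1a L/L line (among them Gja1 and Gja4) and 2 were lower in every line (Gjb1 and Gjb2), where 35.3% and 37.6% of the table did so. Gja1 (chr10:56377300-56390419, mm10, plus strand) encodes the most widespread connexin and had the highest level. Gja1 had levels of 52.2, 77.8, 38.6 and 46.3 FPKM in NIC/Cpt1a L/L lines, and of 4.42 and 26.9 FPKM in the controls. Every NIC/Cpt1a L/L line was above both controls, but WT_8905 was also well above WT_5257. For Gja1 the log2 fold change was 1.78 (SE 0.75, edgeR adjusted p = 0.102).

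The 250 bases before the Gja1 start in RefSeq (chr10:56377050-56377299, GRCm38.p6, plus strand) are shown because this gene is the most abundant of those higher in every NIC/Cpt1a L/L line. It is also 1 of 2 members with an AP-1 motif, among the 34 members that had a RefSeq promoter to search. The capitals mark the AP-1 motif TGANTCA, whose first base is 19 bases before the start.
Gja1 promoter: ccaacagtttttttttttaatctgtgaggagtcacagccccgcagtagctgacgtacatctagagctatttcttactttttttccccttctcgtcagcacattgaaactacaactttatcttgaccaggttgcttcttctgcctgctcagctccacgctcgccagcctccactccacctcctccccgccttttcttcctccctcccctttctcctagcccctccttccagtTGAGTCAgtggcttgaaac
The same letters, read on both strands (the motif is its own reverse complement), were found in 2 of 42 RefSeq promoters of members (4.76%), of Gja1 and Sema6b, and in 7.81% of all 32851 promoters of the same length of 300 bases.

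Gja4, the connexin of arterial endothelium, had 2 reads in the controls and a ratio of summed reads of 13.2 (95% exact counting interval 3.51 to 112). Gjb5, found mainly in skin, had no reads in the controls or in KO_4258, 1.26 FPKM in KO_2768 and a mean at least 3.32-fold above the floor. Without KO_2768 that mean was at or under the floor, so that no fold can be given.

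The level of Gjb2 was 0.949, 0.824, 2.27 and 5.17 FPKM in NIC/Cpt1a L/L lines, against 13.6 and 12.7 FPKM in NIC/Cpt1a +/+ lines. Gjb2, a connexin of glandular epithelium, was lower in every NIC/Cpt1a L/L line, least so in KO_4258, with a log2 fold change of -2.51 (SE 0.78, edgeR adjusted p = 0.0749). Levels of Gjb1 were 0.123, 0, 0.0489 and 0 FPKM in NIC/Cpt1a L/L lines and 3.01 and 0.512 FPKM in NIC/Cpt1a +/+ lines. Gjb1, the main connexin of liver, was lower too and all but absent from the NIC/Cpt1a L/L lines (log2 fold change -5.29, SE 1.64, edgeR adjusted p = 0.0749). The summed level of the 8 connexins was 65.6 to 139 FPKM in NIC/Cpt1a L/L lines and 21.4 and 44.4 FPKM in controls.

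Among the claudins Cldn10, which forms paracellular ion channels, had the widest difference. Cldn10 was at 0.240, 0.0858, 0.455 and 0 FPKM in the NIC/Cpt1a L/L lines and at 24.1 and 5.14 FPKM in the controls. It was below 1 FPKM in every NIC/Cpt1a L/L line (log2 fold change -6.24, SE 1.55, edgeR adjusted p = 0.0619). Cldn25 had levels of 40.4, 36.0, 32.7 and 37.9 FPKM in NIC/Cpt1a L/L lines, and of 49.4 and 47.3 FPKM in the controls. The gene listed as Cldn25 was the most abundant of the family and was lower in every NIC/Cpt1a L/L line by a small margin (log2 fold change -0.40, SE 0.15, edgeR adjusted p = 0.0959). The level of Cldn23 was 5.18, 2.27, 1.36 and 8.06 FPKM in NIC/Cpt1a L/L lines, against 0.955 and 1.92 FPKM in NIC/Cpt1a +/+ lines. Cldn23 overlapped, since KO_2768 was below WT_8905 (log2 fold change 1.55, SE 0.87, edgeR adjusted p = 0.152). Levels of Cldn2 were 2.94, 0.0257, 0 and 0.00756 FPKM in NIC/Cpt1a L/L lines and 0.591 and 0.380 FPKM in NIC/Cpt1a +/+ lines. Cldn2, which forms cation pores in leaky epithelia, exceeded the controls in KO_1922 only, and its log2 fold change was 0.62 (SE 2.55, edgeR adjusted p = 0.817) with KO_1922 and -5.31 without it.

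All 4 desmosomal genes were lower in every NIC/Cpt1a L/L line, as were 37.6% of the table, and 2 of the 4, Dsg1c and Dsg4, had too few reads to be tested. Dsg2, the desmosomal cadherin of simple epithelia, and Pkp4, an armadillo protein of junctions, had high levels in both genotypes. Dsg2 was at 21.1, 16.3, 16.6 and 26.2 FPKM in the NIC/Cpt1a L/L lines and at 33.0 and 37.9 FPKM in the controls. Pkp4 had levels of 20, 15.4, 18.8 and 19.0 FPKM in NIC/Cpt1a L/L lines, and of 44.0 and 27.6 FPKM in the controls. The genotypes did not overlap for either gene, and the log2 fold changes were -0.82 (SE 0.24, edgeR adjusted p = 0.0701) for Dsg2 and -0.97 (SE 0.23, edgeR adjusted p = 0.0601) for Pkp4. Neither was called. The epidermal desmogleins Dsg1c and Dsg4 were near the limit of detection. Dsg1c had 1 read in all NIC/Cpt1a L/L libraries and 2 to 36 in each control library, a ratio of summed reads of 140 (95% exact counting interval 24.2 to 5640). Dsg4 had none and 0 to 8, a mean at least 2.10-fold lower than in the controls.

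Keratins differed one by one. The level of Krt80 was 34.5, 30.8, 5.03 and 43.3 FPKM in NIC/Cpt1a L/L lines, against 3.36 and 5.51 FPKM in NIC/Cpt1a +/+ lines. Krt80, a keratin of differentiating epithelia, was high in 3 NIC/Cpt1a L/L lines, while KO_2768 lay between the controls (log2 fold change 2.68, SE 0.90, edgeR adjusted p = 0.0799). Levels of Krt23 were 1.74, 1.72, 10.2 and 0.558 FPKM in NIC/Cpt1a L/L lines and 51.1 and 41.9 FPKM in NIC/Cpt1a +/+ lines. Krt23 was lower in every NIC/Cpt1a L/L line, with KO_2768 above the others (log2 fold change -3.71, SE 1.08, edgeR adjusted p = 0.0694). Krt17, a keratin of basal cells and of injured epithelium, had 1 read in the controls and 0.756 to 6.83 FPKM in NIC/Cpt1a L/L lines, a ratio of summed reads of 281 (95% exact counting interval 50.2 to 11100). Krt17 has close relatives and pseudogenes in the genome, so its count is less certain. It is also 1 of 9 basal and myoepithelial markers, of which Acta2 and Oxtr were the others listed, both with overlapping genotypes.

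Krt23 and Krt17 lie 763 kb apart on chr11 and had log2 fold changes of -3.71 and 7.86, the latter dependent on the prior count. The 250 bases before the Krt23 start (chr11:99493121-99493370, GRCm38.p6, minus strand) are shown as those of the keratin with the highest level in the controls. The capitals mark an E2 box, CACCTG, whose first base is 232 bases before the start.
Krt23 promoter: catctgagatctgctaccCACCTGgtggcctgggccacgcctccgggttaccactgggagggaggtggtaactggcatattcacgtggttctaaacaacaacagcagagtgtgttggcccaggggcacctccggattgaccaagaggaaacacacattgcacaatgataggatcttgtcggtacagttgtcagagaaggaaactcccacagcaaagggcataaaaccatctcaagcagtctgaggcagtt
This box, searched on both strands as CACCTG or CAGGTG, was in 13 of 42 promoters of members (31.0%), in 7 of 19 of those with a negative and 6 of 23 of those with a positive log2 fold change, and in 20.2% of all promoters. The core of the antioxidant response element, TGACNNNGC on either strand, was in 4 of 42 (9.52%) and in 12.4% of all promoters. These letter matches are descriptions of 34 members with a RefSeq promoter, and none overlaps another motif in the printed sequences.

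The lines of 1 genotype differed from each other in most of these genes. Among the NIC/Cpt1a L/L lines 49 of 53 tested members were called different, beside 88.6% of the table, and between the NIC/Cpt1a +/+ lines 34 were called different, beside 61.1%. These tests use the spread between duplicate libraries of a line, which the labels call biological replicates, and KO_2768 had no duplicate. With a 2-fold range required as well, the counts were 38 (background 47%) and 24 (background 22.4%). The median range over the NIC/Cpt1a L/L lines, on the log2(CPM + 0.1) scale, was 1.99 for the members and 0.982 for the table, and the median difference between the controls was 0.962 and 0.456. For 24 of 54 members (44.4%) that range exceeded the difference between the genotype means, and for 45.4% of the table it did.

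**Figure D4:**
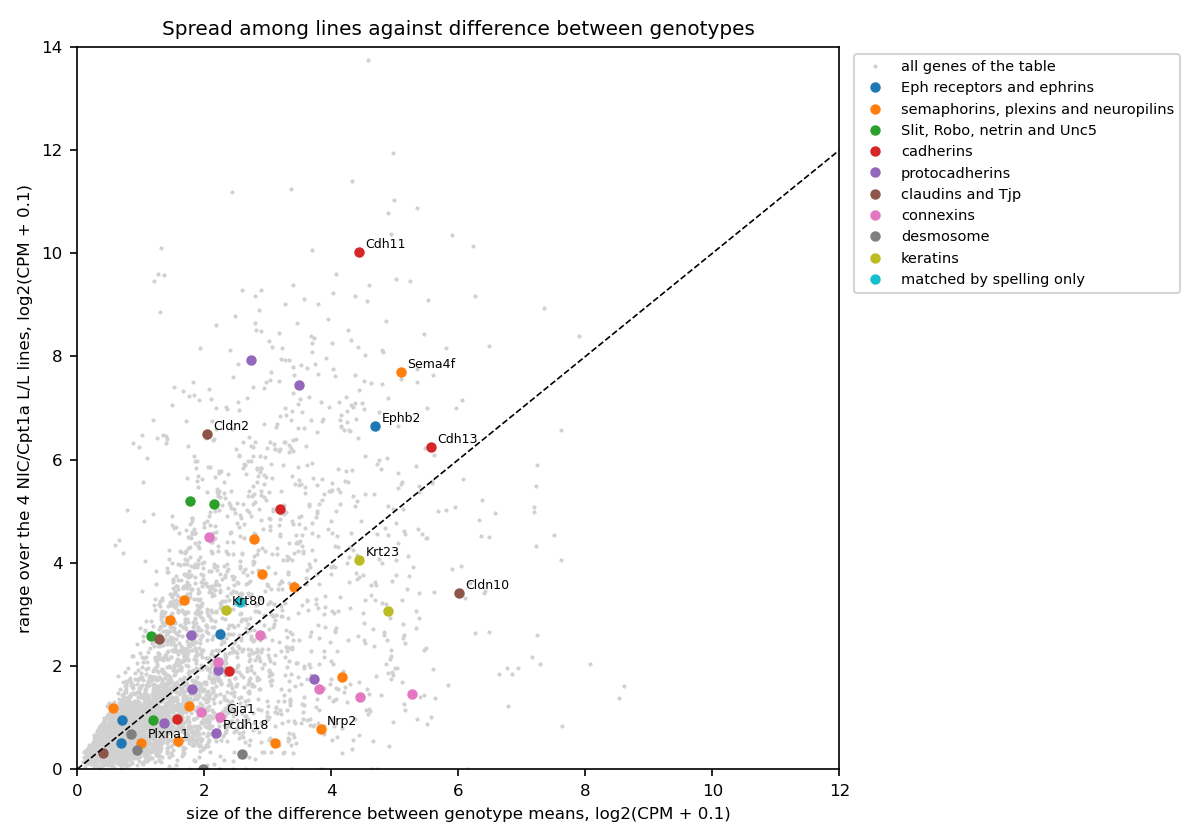
Range over the 4 NIC/Cpt1a L/L lines (vertical axis) against the size of the difference between genotype means (horizontal axis), both on the log2(CPM + 0.1) scale, for the members (coloured by family) and all listed genes (grey). The dashed line marks equality, above which the lines of 1 genotype differ more than the genotypes do. Cdh11, Sema4f, Cldn2 and Ephb2 lie above it, and Nrp2, Pcdh18 and Plxna1 below it.

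KO_2768 and KO_4258 stood farthest apart. Over members, the median absolute log2 difference was 1.25 between this pair and 0.342 between KO_1922 and KO_1925, the most alike pair, and over the table these values were 0.614 and 0.253. Among the 50 tested members KO_4258 was the lowest of the NIC/Cpt1a L/L lines in 24 and the highest in 10, and KO_2768 was the highest in 16 and the lowest in 15. KO_1925 was the highest in 14 and the lowest in 8, and KO_1922 the highest in 10 and the lowest in 3. These ranks were not counted over the table. For 12 members with a positive log2 fold change, KO_4258 alone kept the genotypes from separating: Cdh11, Cdh13, Cdh26, Ephb2, Gjb5, Ntng2, Pcdh17, Pcdh19, Plxnb2, Robo3, Sema3c and Sema7a. Without KO_4258, 27 members rather than 15 were higher in every NIC/Cpt1a L/L line, and 46.1% of the table rather than 35.3% was. The 12 members were picked for not exceeding both controls in KO_4258, and several of them are at or near 0 there. The 6 mesenchymal markers named above were at 0 in that line as well, but Cdh11 belongs to both groups. The part of those markers in this pattern was not tested.

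Genes that work with these families but do not carry their names were counted from lists written from general knowledge. Earlier results of these data were known when the lists were chosen. Of 34 junction partners 11 were listed, 6 with a positive and 5 with a negative log2 fold change, and none was called. Plakoglobin (Jup), which links cadherins to filaments, was at 115 to 208 FPKM in NIC/Cpt1a L/L lines and 262 and 261 FPKM in controls, and the tight junction genes Marveld2 and Marveld3 and the scaffold genes Mpp5 and Cgnl1 were lower in every NIC/Cpt1a L/L line as well. F11r, Perp and Ppl were higher in every line, the desmosome-associated Ppl at 16.1 to 31.5 FPKM against 10.44 and 11.02 FPKM. Of the 11 listed junction partners 5 were thus lower and 3 higher in every NIC/Cpt1a L/L line, where 37.6% and 35.3% of the table were.

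Of 13 atypical cadherins and relatives 5 were listed, 4 with a positive log2 fold change. Fat2, a giant protocadherin, was called higher (adjusted p = 0.0412, edgeR), as were 1.66% of all tested genes. It had no read in the controls and 0.0774 to 0.301 FPKM in the other lines. It therefore passed the filter on low counts through those lines alone, and its log2 fold change depends on the prior count. Celsr2, a planar polarity receptor, was called lower, at 0.990 to 2.29 FPKM against 5.34 and 6.11 FPKM (adjusted p = 0.0474, edgeR). Of all tested genes 3.47% were called lower. Of 40 guidance partners 10 were listed, 6 with a positive and 4 with a negative log2 fold change and none called. Srgap2, which acts downstream of Robo receptors, was at 8.75 to 11.8 FPKM against 6.13 and 4.88 FPKM, and its relative Srgap3 was at 7.274 to 12.97 FPKM against 20.3 and 24.6 FPKM. Of 9 intermediate filament partners 3 were listed, and Plec, the filament linker plectin, was the only one higher in every NIC/Cpt1a L/L line, as was 35.3% of the table.

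By position, the 6 members on chr4 and the 4 on chr8 all had a positive log2 fold change, where 85.5% and 77.4% of the tested protein-coding genes of these chromosomes did. On chr18 the 3 tested members, Dsg2, Pcdh12 and Pcdhb11, were all negative, and 40.9% of tested genes there were positive. Over the other chromosomes members of both directions were mixed or fewer than 4 were present.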

How the data were processed

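RNA from mammary tumor-derived cell lines of NIC mice was sequenced, and 11 libraries (7 NIC/Cpt1a L/L and 4 NIC/Cpt1a +/+) were used. The authors removed adapter and low-quality reads, used STAR for alignment to mm10, HTSeq for gene counts and DESeq2 for the test of genotypes, and the submitters' processing notes also list Trimmomatic, edgeR and limma. Their deposited table gives whole-number read counts without normalization, a normalized signal that the authors made by dividing each count by 1 size factor per library, FPKM computed by the authors, and gene length. The table also holds the authors' test of the genotypes (log2 fold change with raw and adjusted p-value), and these deposited columns were not used, except to see that no listed gene has an adjusted p-value above 0.0500. Strand use in counting is not given in the sources used here, so overlapping genes of opposite strand cannot be told apart.

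Members and lists were chosen with earlier results of these data known. Duplicate counts were summed by line, and library totals were recovered from counts, length and FPKM. Genes passing filterByExpr (4268) were scaled by TMM and tested by line with edgeR's quasi-likelihood F-test (prior of 1.91 degrees of freedom), two-sided, with Benjamini-Hochberg adjustment at a threshold of 0.05. Differences among lines used all 11 libraries. Folds against a genotype with no reads used a floor of 3 reads per library as a bound, and genes with 1 to 3 reads got an exact 95% interval. Intervals and floors cover counting error only. The functions were tested on simulated data. Values named in full follow a rule: in each family the highest member, the 2 largest increases and the 2 largest decreases with at least 1 CPM in at least 2 lines, and each called member. The values of some members are not reported here. Lists covered luminal, basal, fibroblast, endothelial, leukocyte, adipocyte and melanocyte markers and partners of the families. Alternatives changed the sample unit, replicate block, tool, scaling, filter, number of tests and lines, and the authors' size factors were added after the data were seen. Promoters came from RefSeq on GRCm38.p6, and 34 of 54 members had one. Identifiers of all 54 matched GENCODE M21. Tools were R 4.3.3, edgeR 4.0.16, limma 3.58.1, DESeq2 1.42.0, Python 3.11.15 and matplotlib 3.10.9.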

Additional observations from a re-analysis of the deposited data

Results flagged for a closer look

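In 6 of the 33 named genes 1 of the 4 NIC/Cpt1a L/L lines lay apart from the other 3 by Dixon's criterion. The rate at which chance meets this criterion is set for normally distributed values, and several levels here lie near 0. The genes were also named for their levels and fold changes in these data, so 6 of 33 was not set against a chance rate. KO_4258 was apart in Ephb4, the ephrin-B receptor, at 68.4 FPKM where the other lines were at 35.4 to 39.8 FPKM. It was apart in the opposite direction in the plexin Plxnb2, at 56.9 FPKM against 120 to 130 FPKM in the others. KO_2768 was apart in the mesenchymal cadherin Cdh11, at 24.8 FPKM against 0 to 0.513 FPKM. The same line was apart in Pcdh17, at 1.83 FPKM against 0 to 0.260 FPKM, and in the keratin Krt23, at 10.2 FPKM against 0.558 to 1.74 FPKM. KO_1922 was apart in the claudin Cldn2, at 2.94 FPKM against 0 to 0.0257 FPKM. KO_2768 had 1 library, so its values in Cdh11, Pcdh17 and Krt23 have no duplicate.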

How the results depend on the processing

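The counts of members called between genotypes (1 higher, 1 lower) depended on the sample unit, the tool and the lines. With every library as a separate sample they were 22 and 16, with the replicate block as well 20 and 16, with DESeq2 by line 19 and 15, with DESeq2 size factors in edgeR 3 and 2, and without a filter 4 and 3. Without TMM, with the number of tests raised to the genes of the reference, and with the authors' size factors (chosen after the data were seen), both counts were 0. Leaving out 1 line gave 0 to 9 higher and 0 to 6 lower, the most without KO_4258. Members higher in every NIC/Cpt1a L/L line numbered 15 to 27 when 1 line was left out, with 27 without KO_4258, and 13 to 17 under the other settings. Over all tested genes the calls were 71 higher and 148 lower, 1873 and 1680 by library, 974 and 1446 with DESeq2 and 0 and 0 without KO_1922, KO_1925 or WT_5257. Duplicate numbers did not pair the libraries (correlations of deviations between -0.0688 and 0.0556 over 10 pairs of lines), so the block carries no design information. Counts of members that differed among lines stayed within 1.5 times of 49 and 34 in the alternatives run, also with a replicate block (48 and 34).

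Among the 33 named genes the log2 fold change reversed for Cldn2 without KO_1922 (range over left-out lines -5.31 to 1.04). It also reversed for Cdh23 without WT_8905 (range -3.65 to 0.48). Without WT_5257, 1 member outside the named genes changed sign. Scaling moved the median log2 fold change of the table from 0.494 to between 0.37 and 0.594, and no tested member changed sign under it. Genes under 1 FPKM in all lines rest on few reads, and 2 control lines limit every comparison of genotypes. The causes of these shifts were not tested.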
